A study of Mus musculus with 12 samples.

Results

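The chemokines and their receptors were followed in the mammary glands of mice with and without the cyclin D1 gene Ccnd1. The members are all genes whose platform symbol is a numbered Cxcl, Ccl, Cxcr or Ccr symbol, together with Cx3cl1, Cx3cr1, Xcl1 and Xcr1. They number 49 of 18193 measured genes, of which 33 encode ligands and 16 encode receptors. Ccl19, the Ccl21 genes, Ccl26, Ccl27b and Cxcr1 are not analysed here.

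The 12 mice were virgin, ovariectomized C57BL/6 animals, 6 of them Ccnd1+/+ (called wildtype) and 6 Ccnd1-/- (called knockout). Within each genotype 3 mice carried placebo pellets and 3 carried estradiol-releasing pellets of 0.72 mg with a 60-day release for 7 days. This gave 4 groups of 3 separate mice, each with 1 array, and all animals, controls included, had lost their ovaries. Age, the gland taken, the treatment of its lymph node and the way the Ccnd1 allele was made are not given in the sources used here. The whole gland was assayed as a mixture of cells, so fewer cells of a type and less RNA per cell cannot be told apart.

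Chemokines are small secreted proteins that bind receptors coupled to G proteins and direct leukocytes along gradients. Their names follow the spacing of the first cysteines (CXC, CC, C and CX3C), and many ligands share receptors. In the mouse mammary gland, macrophages and eosinophils gather at growing ducts, and the eosinophil attractant Ccl11 takes part in that recruitment. Lymph nodes, 1 of which lies in the inguinal fat pad, are laid out by the follicle ligand Cxcl13 and the T zone receptor Ccr7.

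Values are log2 intensities, and array medians over all probe sets lay between 5.73 and 5.8. Ccnd1 had a mean of 8.81 in wildtype placebo and 10.02 in wildtype estradiol, against 7.56 and 7.41 in the knockout groups, and it was lower on every knockout array than on every wildtype array. A member was called dim on an array where it lay under the lower quartile of that array's genes, which ranged from 4.92 to 5.05. By that measure 9 members were dim on all 12 arrays (Ccl3, Ccl7, Ccr3, Ccr4, Ccr8, Cxcl2, Cxcl3, Xcl1 and Xcr1), 9 were dim on some arrays and 31 on none. Little can be said of differences in the first set. Over the 12 arrays the members spanned a median of 1.44 log2 units from lowest to highest, against 0.8 for all genes, and 22 members spanned more than 2.

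The arrays differed in lymphocyte content within every group. The lymphocyte score is the mean of centred T and B cell marker levels, with no member among the markers. It was 2.3, 1.72 and -1.96 on wildtype placebo arrays 1, 2 and 3, and -2.06, 0.7 and -2.22 on wildtype estradiol arrays. In knockout it was 1.92, -1.98 and 1.93 on placebo and -2.14, 1.49 and 0.3 on estradiol. The 5 arrays near -2 therefore fall in all 4 groups, with 2 of them in wildtype estradiol. For most members that follow the score, wildtype differences are also given with the score as a covariate.

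The sequences around 3 transcription start sites are shown because Cxcl15 and Cxcl9 had the largest called rise and the only called fall among the members, and because Cxcl10, near Cxcl9 on the chromosome and induced like it by interferon gamma, had no call. Each runs from 250 bases before to 50 bases after the start, on the gene's strand, in the GRCm38.p6 RefSeq annotation. The Cxcl15 window is chr5:90794284-90794583 (+), the Cxcl9 window is chr5:92328030-92328329 (-), and the Cxcl10 window is chr5:92348840-92349139 (-). Capitals mark matches, on either strand, to 6 motifs: the palindromic estrogen response element in its consensus form, its half-site AGGTCA, the interferon-stimulated response element, which is a pair of GAAA blocks with 2 free bases between them, the gamma-activated sequence TTCNNNGAA, the NF-kB site GGAATTTCC and the AP-1 site TGAGTCA.
Cxcl15: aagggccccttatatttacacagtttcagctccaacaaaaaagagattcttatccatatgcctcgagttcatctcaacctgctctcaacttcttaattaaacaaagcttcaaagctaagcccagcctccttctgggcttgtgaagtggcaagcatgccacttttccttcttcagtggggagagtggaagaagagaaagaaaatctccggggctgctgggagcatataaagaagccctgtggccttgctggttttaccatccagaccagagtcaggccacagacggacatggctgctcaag
Cxcl9: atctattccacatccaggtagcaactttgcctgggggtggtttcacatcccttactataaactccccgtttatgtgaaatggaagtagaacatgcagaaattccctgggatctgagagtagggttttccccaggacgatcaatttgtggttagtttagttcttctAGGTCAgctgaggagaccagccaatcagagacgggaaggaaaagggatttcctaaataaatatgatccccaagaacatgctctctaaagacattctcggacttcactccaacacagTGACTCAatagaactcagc
Cxcl10: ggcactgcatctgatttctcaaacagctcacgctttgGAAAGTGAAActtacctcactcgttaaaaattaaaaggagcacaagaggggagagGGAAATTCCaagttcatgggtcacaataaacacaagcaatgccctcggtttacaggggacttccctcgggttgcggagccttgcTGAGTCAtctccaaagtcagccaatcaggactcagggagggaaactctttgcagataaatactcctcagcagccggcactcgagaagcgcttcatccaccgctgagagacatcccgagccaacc
The Cxcl15 window held none of the 6 motifs. The Cxcl9 window held the half-site AGGTCA at position -85 and the AP-1 match TGACTCA at position 31 counted from the start. The Cxcl10 window held an interferon-stimulated match GAAAGTGAAA, the NF-kB match GGAAATTCC and the AP-1 match TGAGTCA. Of 32851 RefSeq promoter windows, 0.07% held the full estrogen response element, 16.3% the half-site, 3.44% the interferon-stimulated element, 8.3% the gamma-activated sequence, 0.317% the NF-kB site and 5.2% the AP-1 site. Those percentages count windows, whereas a member counts once if any of its windows matches, so the measures differ. Windows were found for 36 members. Among these the counts were 0 for the full estrogen response element, 12 for the half-site, 2 for the interferon-stimulated element, 3 for the gamma-activated sequence, 5 for the NF-kB site and 6 for the AP-1 site. The 5 members with the NF-kB letters were Ccr3, Cxcl1, Cxcl10, Cxcl2 and Cxcl3. The half-site and the full element share the letters GGTCA, and a full match need not hold the half-site with its leading A. Such matches describe letters in a window and are not evidence of binding.

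Estradiol against placebo in wildtype glands moved 4 of the 49 members past the threshold, an adjusted p under 0.05 over all genes in limma. Cxcl15, Ccl8 and Ccr1 rose and Cxcl9 fell. The count dropped to 1 when wildtype placebo array 1 or wildtype estradiol array 3 was left out, and to 2 when placebo array 2 or estradiol array 1 of wildtype was left out. The 4 calls with all arrays are 8.16% of the members, beside 1.88% of all genes. The 3 rises stand beside 1.83% of all genes called higher, and the 1 fall beside 0.0495% called lower. At an unadjusted p under 0.05 there were 11 members, or 22.4%, beside 13.5% of all genes. The groups did not overlap for 12 members (10 higher and 2 lower), or 24.5%, beside 17% of all genes in either direction, 11.9% higher and 5.11% lower. The median member difference was -0.06, with 20 members higher and 29 lower, and the median over all genes was 0.01.

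Estradiol against placebo in knockout glands moved 0 of the 49 members past the threshold in limma, beside 0.0989% of all genes called in either direction, 0.0934% higher and 0.0055% lower. At an unadjusted p under 0.05 there were 3 members (6.12%, beside 8.32% of all genes): Ccr1 at 0.98 ± 0.38 (SE), Cxcl9 at -0.71 ± 0.25 and Ccl11 at -1.34 ± 0.51. The groups did not overlap for 6 members (12.2%, beside 13.5% of all genes, 8.37% higher and 5.09% lower), Ccr1 higher and Ccl11, Ccl2, Ccl3, Ccl4 and Ccr3 lower. The median member difference was -0.16, with 16 higher and 33 lower.

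**Figure D1:**
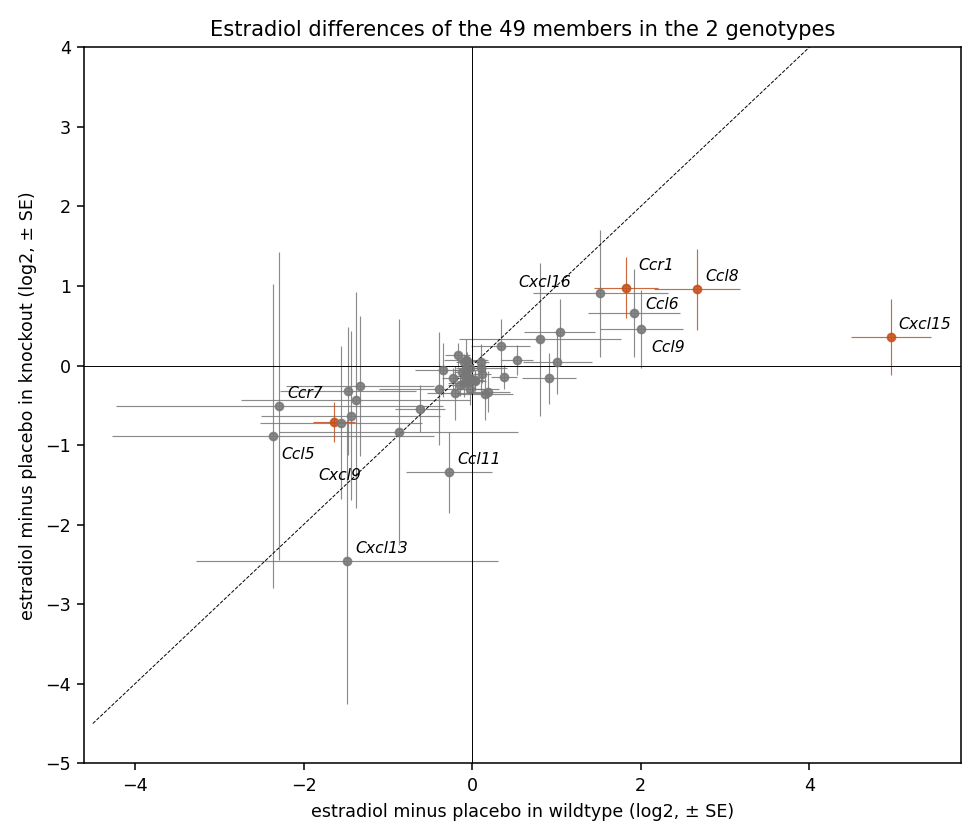
Estradiol minus placebo differences (log2, ± SE) of the 49 members in wildtype (x axis) and knockout (y axis); orange points were called in wildtype and the dashed line marks equal differences. Cxcl15 lies far to the right at 4.97 in wildtype and 0.36 in knockout, while the wide bars at lower left belong to genes such as Ccl5 and Ccr7.

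Among the neutrophil-attracting CXC ligands, Cxcl15 rose in wildtype glands. Cxcl15 is a mouse ligand known from airway epithelium, where it attracts neutrophils. Its level was 5.36, 5.27 and 5.95 on the wildtype placebo arrays and 10.22, 11.22 and 10.04 on the wildtype estradiol arrays. In knockout it was 5.14, 5.29 and 5.85 on placebo and 6.94, 5.17 and 5.24 on estradiol. All 3 wildtype estradiol arrays stand above the other 9 arrays, and of those only knockout estradiol array 1 lies above 6.

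The wildtype rise was 4.97 ± 0.48 (SE, n = 3 against 3), a 31.4-fold ratio of intensities, with an adjusted p of 0.00133 in limma. The knockout difference was 0.36 ± 0.48 (adjusted p 0.874). A second probe set of the gene gave 6.11 in wildtype and 0.81 in knockout. On estradiol the knockout lay 4.71 ± 0.48 lower (-4.71, adjusted p 0.00606 in limma), 1 of 49 members called there. The interaction, the knockout response minus the wildtype response, was -4.61 ± 0.67 and did not pass (adjusted p 0.126). It passed without knockout estradiol array 1, at -5.19 with an adjusted p of 0.0167, and with the lymphocyte score as a covariate (-4.52, adjusted p 0.0324). The genotype difference on estradiol had an adjusted p of 0.0513 without knockout estradiol array 3.

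Luminal epithelial markers were also highest on the wildtype estradiol arrays, and so were myoepithelial, fibroblast and macrophage markers. Myoepithelial mean levels were 8.22 to 8.9 there and at most 7.56 on the other arrays. Fibroblast mean levels were 12.31 to 12.59 there and at most 12.13 on the other arrays. The luminal mean level, over 14 of 15 markers measured, ranged from 6.98 to 7.59 in wildtype placebo and 8.16 to 9.79 in wildtype estradiol. In knockout it ranged from 5.54 to 7.18 on placebo and 5.44 to 6.38 on estradiol. On estradiol 6 of the 14 were called lower in knockout: the keratin Krt19, the adhesion gene Cdh1, the alveolar factor Elf5, the claudins Cldn4 and Cldn7, and Prom1. Of 10 myoepithelial markers 3 were called lower there, Acta2, Cnn1 and Tagln. With the luminal score as a covariate the wildtype rise of Cxcl15 was 3.99 ± 0.57 (adjusted p 0.054) and the genotype difference on estradiol was -2.98 ± 0.83 (adjusted p 1). In that fit 0% of all genes were called between genotypes on estradiol, and 0.0605% in wildtype under estradiol. The score does not overlap between the groups of either comparison, so luminal content cannot be told apart from treatment or genotype there. Whether luminal content, or that of another cell type, accounts for the difference was not tested.

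The other 4 neutrophil-attracting ligands did not pass in any comparison. Cxcl1 spanned 0.49 over the 12 arrays, and Cxcl2 and Cxcl3 were dim on all of them. Cxcl5, dim on 11 arrays, read 3.02, 4.98 and 3.26 on the wildtype estradiol arrays and between 2.52 and 2.91 on the other 9. Its wildtype difference was 1.01 ± 0.41 (adjusted p 0.299), carried mostly by wildtype estradiol array 2, which also had the highest luminal marker mean. The receptor Cxcr2, through which these ligands draw neutrophils, differed by -0.03 ± 0.20 in wildtype and by -0.29 in knockout. Neutrophil markers, 8 of 10 measured, had mean levels of 6.09 to 6.61 in wildtype placebo and 5.76 to 5.8 in wildtype estradiol. In knockout the mean levels were 5.56 to 7.46 on placebo and 5.31 to 6.69 on estradiol. In wildtype 3 markers were higher and 5 lower under estradiol, from -1.6 to 0.78, and none was called.

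Cxcl15 lies in a cluster of CXC ligand genes on chromosome 5. Its nearest neighbours in RefSeq gene order, Cxcl3 and Cxcl1, differed by 0.12 and 0.03 between wildtype estradiol and placebo. Among the 4 genes on each side, Pf4, which encodes platelet factor, differed by 1.66 ± 0.49 (adjusted p 0.131). Epgn, which encodes the growth factor epigen, differed by 2.40 ± 0.54 (adjusted p 0.057). None of the 8 neighbours passed the test.

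**Figure D2:**
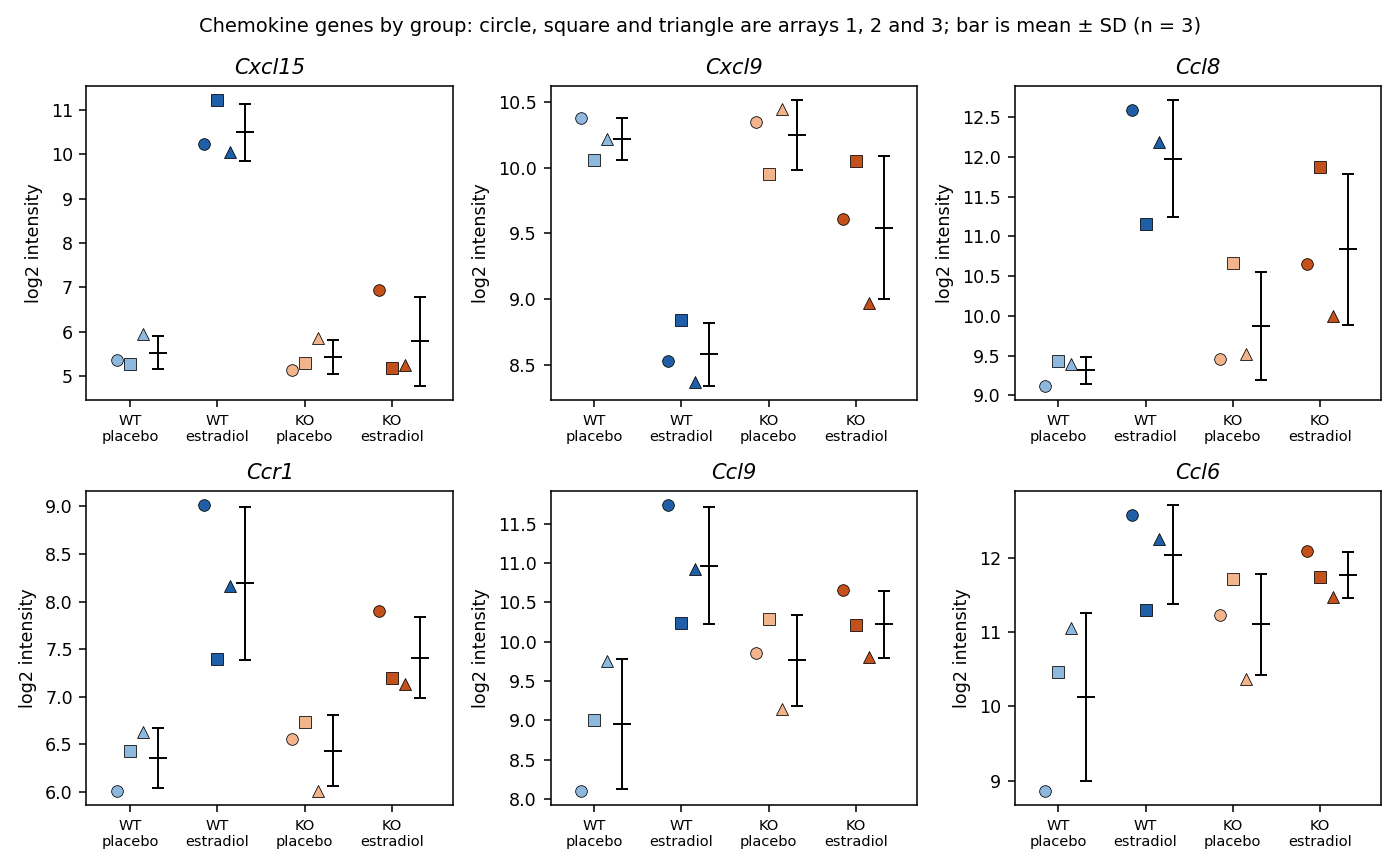
Log2 intensity (y axis) of 6 members by genotype and treatment (x axis), with 1 point per array and the mean ± SD (n = 3) beside each group. The wildtype estradiol arrays of Cxcl15 lie at 10.04 to 11.22 and all other arrays at 5.14 to 6.94, while those of Cxcl9 lie at 8.37 to 8.84, below the rest.

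Of the interferon-induced CXC ligands, Cxcl9 fell in wildtype and the other two did not pass. Cxcl9, Cxcl10 and Cxcl11 are induced by interferon gamma and draw T cells and natural killer cells through the receptor Cxcr3. C57BL/6 mice are known to carry a Cxcl11 gene that makes no functional protein. Cxcl9 read 10.38, 10.06 and 10.22 on wildtype placebo arrays and 8.53, 8.84 and 8.37 on wildtype estradiol arrays. In knockout it read 10.35, 9.95 and 10.45 on placebo and 9.61, 10.05 and 8.97 on estradiol. The wildtype groups were apart, while in knockout estradiol array 2 lay within the placebo range.

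The wildtype fall of Cxcl9 was -1.64 ± 0.25 (adjusted p 0.0112 in limma). Averaged over both genotypes it fell by 1.17 ± 0.18 (adjusted p 0.0121). The knockout difference of -0.71 ± 0.25 had an adjusted p of 0.516, and the interaction was 0.93 ± 0.36 (adjusted p 0.697), so the responses of the genotypes were not shown to differ. The wildtype call was lost without wildtype placebo array 1 (-1.56, adjusted p 0.0584) and without wildtype estradiol array 3 (-1.53, adjusted p 0.0547). A dimmer probe set of the gene gave -0.76 (adjusted p 0.101).

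Cxcl9 did not follow the lymphocyte score. On the low-score wildtype placebo array 3 it stood at 10.22, between the other two arrays of its group, and with the score as a covariate the wildtype difference was -1.50 ± 0.25 (adjusted p 0.0111). Cxcl10 differed by -0.34 ± 0.34 and Cxcl11 by -0.17 in wildtype, neither past the threshold. Cxcr3 ranged from 5.92 to 8.45 and differed by -0.39 ± 0.71 in wildtype, or by 0.36 ± 0.44 with the lymphocyte covariate. Its lowest values, 5.92 and 6.19, were on wildtype placebo array 3 and knockout placebo array 2, which are low in the score. Between Cxcl9 and Cxcl10 in gene order lies Art3, which differed by 0.10 ± 0.27.

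In the interferon gamma axis, 13 of 14 genes were measured, and 2 were called lower and 0 higher in wildtype under estradiol. These were Tbx21, the T-bet factor of type 1 lymphocytes, at -1.14 ± 0.22 (adjusted p 0.0289) and Cd274, the checkpoint ligand PD-L1, at -1.04 ± 0.22 (adjusted p 0.0452). In all 10 of the 13 were lower and 3 higher, with a median of -0.4. In knockout 10 were lower and 3 higher, with a median of -0.26 and 0 called. In the same wildtype comparison 12 of 12 T cell markers were lower (median -1.92) and 6 of 7 NK cell markers were lower (median -0.41), with 0 called in either list. In knockout 12 of 12 and 7 of 7 were lower, with medians of -0.65 and -0.28. The part of these cells in the interferon gamma genes was not tested.

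Among the inflammatory CC ligands, which draw monocytes, macrophages and granulocytes, Ccl8 rose in wildtype. Ccl8 is a monocyte chemoattractant of the Ccl2 family, and in mouse it acts on Ccr8. It read 9.12, 9.43 and 9.39 on wildtype placebo arrays and 12.59, 11.16 and 12.19 on wildtype estradiol arrays. In knockout it read 9.45, 10.66 and 9.52 on placebo and 10.65, 11.87 and 10 on estradiol. The wildtype groups were apart by more than 1 unit, and the knockout groups overlapped through knockout placebo array 2.

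The wildtype rise of Ccl8 was 2.67 ± 0.51, or 6.36-fold (adjusted p 0.0305 in limma). The average rise over both genotypes was 1.82 ± 0.36 (adjusted p 0.0376). The interaction was -1.7 ± 0.72 (adjusted p 0.754). The wildtype call was lost without wildtype placebo array 1 (adjusted p 0.134), wildtype placebo array 2 (0.106), wildtype estradiol array 1 (0.0977) or wildtype estradiol array 3 (0.0984), with differences of 2.36 to 2.73. The average lost its call without any of the same 4 arrays, knockout placebo array 1 or 3, or knockout estradiol array 1 or 2, with adjusted p from 0.0626 to 0.107. The receptor Ccr8 was dim on all arrays, at 4.12 to 4.91, and differed by -0.14 in wildtype.

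The receptor Ccr1, carried by monocytes and neutrophils and bound by Ccl5, Ccl6 and Ccl9, also rose. It read 6.01, 6.43 and 6.63 on wildtype placebo arrays and 9.01, 7.4 and 8.16 on wildtype estradiol arrays. In knockout it read 6.56, 6.73 and 6.01 on placebo and 7.9, 7.2 and 7.13 on estradiol. In both genotypes every estradiol array lay above every placebo array, and Ccr1 was the only member of which this was so. The rise was 1.83 ± 0.38 in wildtype (adjusted p 0.0432 in limma) and 1.4 ± 0.27 on average over the genotypes (adjusted p 0.0344).

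The Ccr1 call lies close to the threshold. It was lost in 16 of 25 alternatives, among them quantile scaling (adjusted p 0.0805) and median centring (adjusted p 0.0849). It was also lost without wildtype placebo array 1 or 2, wildtype estradiol array 1 or 3, knockout placebo array 1 or 3, or knockout estradiol array 2 or 3, with adjusted p from 0.0575 to 0.192. Differences in those 8 fits lay between 1.42, without wildtype estradiol array 1, and 1.87. The average over both genotypes lost its call without wildtype placebo array 1 or 2, wildtype estradiol array 3, knockout placebo array 1 or 3, or any knockout estradiol array, with adjusted p from 0.0573 to 0.096. A second probe set of the gene, at 3.07 to 3.27 in group means, differed by 0.07. The neighbouring receptor genes Ccr3 and Ccr2 differed by -0.02 and -0.10 in wildtype, and neither passed.

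Ccl9 and Ccl6, neighbouring genes whose products bind Ccr1 in mouse, did not pass in the main fit, which holds all arrays and no covariate. Ccl9 read 8.1, 9.0 and 9.75 on wildtype placebo arrays and 11.73, 10.24 and 10.92 on wildtype estradiol arrays, and the groups were apart. Its wildtype difference was 2.01 ± 0.49 (adjusted p 0.0746), and without wildtype placebo array 3 it was 2.41 (adjusted p 0.025). With the lymphocyte covariate it passed, at 1.53 ± 0.33 (adjusted p 0.0351 in limma). Ccl6 read 8.86, 10.46 and 11.05 against 12.57, 11.3 and 12.25, a difference of 1.92 ± 0.55 (adjusted p 0.122). In knockout the differences were 0.46 ± 0.49 for Ccl9 and 0.66 ± 0.55 for Ccl6. Ccl3 and Ccl4, beside them in gene order, differed by -0.05 and -0.08 in wildtype, while Wfdc17, a small protease inhibitor-like gene at the same locus, rose by 2.15 ± 0.42 (adjusted p 0.0323 in limma).

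Macrophage markers were among the marker lists that moved with these genes. Over 14 of 14 markers measured, the mean level ranged from 8.24 to 8.78 in wildtype placebo and 9.51 to 10.91 in wildtype estradiol, against 8.53 to 9.0 and 8.96 to 9.42 in the knockout groups. Called macrophage markers in wildtype were the endotoxin co-receptor Cd14 (1.81) and the Fc receptors Fcgr1 (3.0) and Fcgr3 (1.86). With the macrophage score as a covariate the wildtype differences became 0.97 ± 0.76 for Ccl8, 0.08 ± 0.34 for Ccr1, -0.11 ± 0.50 for Ccl9 and -0.08 ± 0.77 for Ccl6, none past the threshold. In the same fit Cxcl9 was at -1.47 ± 0.50 (adjusted p 0.483) and Cxcl15 at 5.07 ± 0.94 (adjusted p 0.0919). The macrophage score differs between the groups without overlap in wildtype, so macrophage content and treatment cannot be told apart there. Other lists were higher in wildtype under estradiol as well: 9 of 9 fibroblast markers (median 1.03) and 10 of 10 myoepithelial markers (median 1.21). Of mast cell markers 8 of 8 were higher, and of luminal markers 13 of 14. By contrast 13 of 13 B cell and 7 of 7 dendritic cell markers were lower. The part of any of these cell types in Ccl8, Ccr1, Ccl9 and Ccl6 was not tested.

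The monocyte attractants Ccl2, Ccl7 and Ccl12, ligands of Ccr2, differed by 0.38, 0.53 and 1.04 in wildtype, with adjusted p of 0.278, 0.247 and 0.306. Ccl12 read 8.23, 6.94 and 7.52 on wildtype estradiol arrays and 7.14, 6.6 and 5.82 on placebo arrays, which overlapped. Ccr2 itself ranged from 6.48 to 7.25 over all arrays. Of the 11 inflammatory CC ligands measured, 7 were higher and 4 lower in wildtype, with 1 called and a median of 0.38. In knockout 5 were higher and 6 lower, with 0 called and a median of -0.13.

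Ccl11, the eotaxin that draws eosinophils through Ccr3, was the only member with a knockout difference of at least 1 log2 unit at an unadjusted p under 0.05. It read 7.11, 8.07 and 7.06 on knockout placebo arrays and 6.75, 5.55 and 5.92 on knockout estradiol arrays, which did not overlap. The difference was -1.34 ± 0.51 (adjusted p 0.528). With the lymphocyte score as a covariate it was -1.57 ± 0.20 (adjusted p 0.0162 in limma), the only member past the threshold in knockout in that fit. In wildtype, where values were 6.28, 6.66 and 7.81 against 7.43, 5.92 and 6.58, the differences were -0.27 ± 0.51 and, with the covariate, -0.87 ± 0.21 (adjusted p 0.0554). The average over both genotypes passed with the covariate, at -1.22 ± 0.15 (adjusted p 0.00285), and without it was -0.81 ± 0.36 (adjusted p 0.299). Within each group Ccl11 was highest on an array near -2 on the score, with a slope of -0.32 ± 0.04 per unit of the score within groups. The 4 eosinophil markers measured and Ccr3 were dim on all arrays.

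The lymphoid homing receptors Ccr7, Cxcr4 and Cxcr5 had wide spans that followed the lymphocyte score. Ccr7, which brings T cells and dendritic cells into lymph node T zones, read 9.82, 9.14 and 4.83 on wildtype placebo arrays and 4.46, 7.98 and 4.48 on wildtype estradiol arrays. In knockout it read 9.48, 4.06 and 9.36 on placebo and 4.14, 9.59 and 7.64 on estradiol. The groups overlapped in every comparison, and the 5 arrays at 4.06 to 4.83 are those near -2 on the score. The wildtype difference was -2.29 ± 1.94, and with the score as a covariate 0.17 ± 0.22.

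The same 5 arrays were the lowest for 9 members: the T cell chemokine Ccl5, the dendritic cell product Ccl22, the receptors Ccr6, Ccr7, Ccr9, Cxcr4, Cxcr5 and Cxcr6 of lymphocytes, and the monocyte receptor Cx3cr1. Ccl5 ranged from 6.83 to 12.51, Cxcr5 from 4.15 to 8.72 and Cxcr4 from 5.02 to 9.43. Fitted slopes on the score within groups were 1.29 ± 0.03 log2 units for Ccl5, 1.31 ± 0.04 for Ccr7, 0.95 ± 0.04 for Cxcr4, 0.91 ± 0.05 for Cxcr5 and 0.7 ± 0.05 for Ccl22. These slopes describe 12 arrays, with 5 near -2 on the score and most others at 1.49 to 2.3, and no test is attached. Wildtype estradiol array 2 at 0.7 and knockout estradiol array 3 at 0.3 lie between. With the score in the model the SE of the wildtype difference fell from 1.91 to 0.17 for Ccl5 and from 1.36 to 0.27 for Cxcr5, and the differences themselves were 0.08 and 0.33. Cxcr4 passed in wildtype in that fit, at 0.93 ± 0.21 (adjusted p 0.044), where the fit without the score gave -0.87 ± 1.42.

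**Figure D3:**
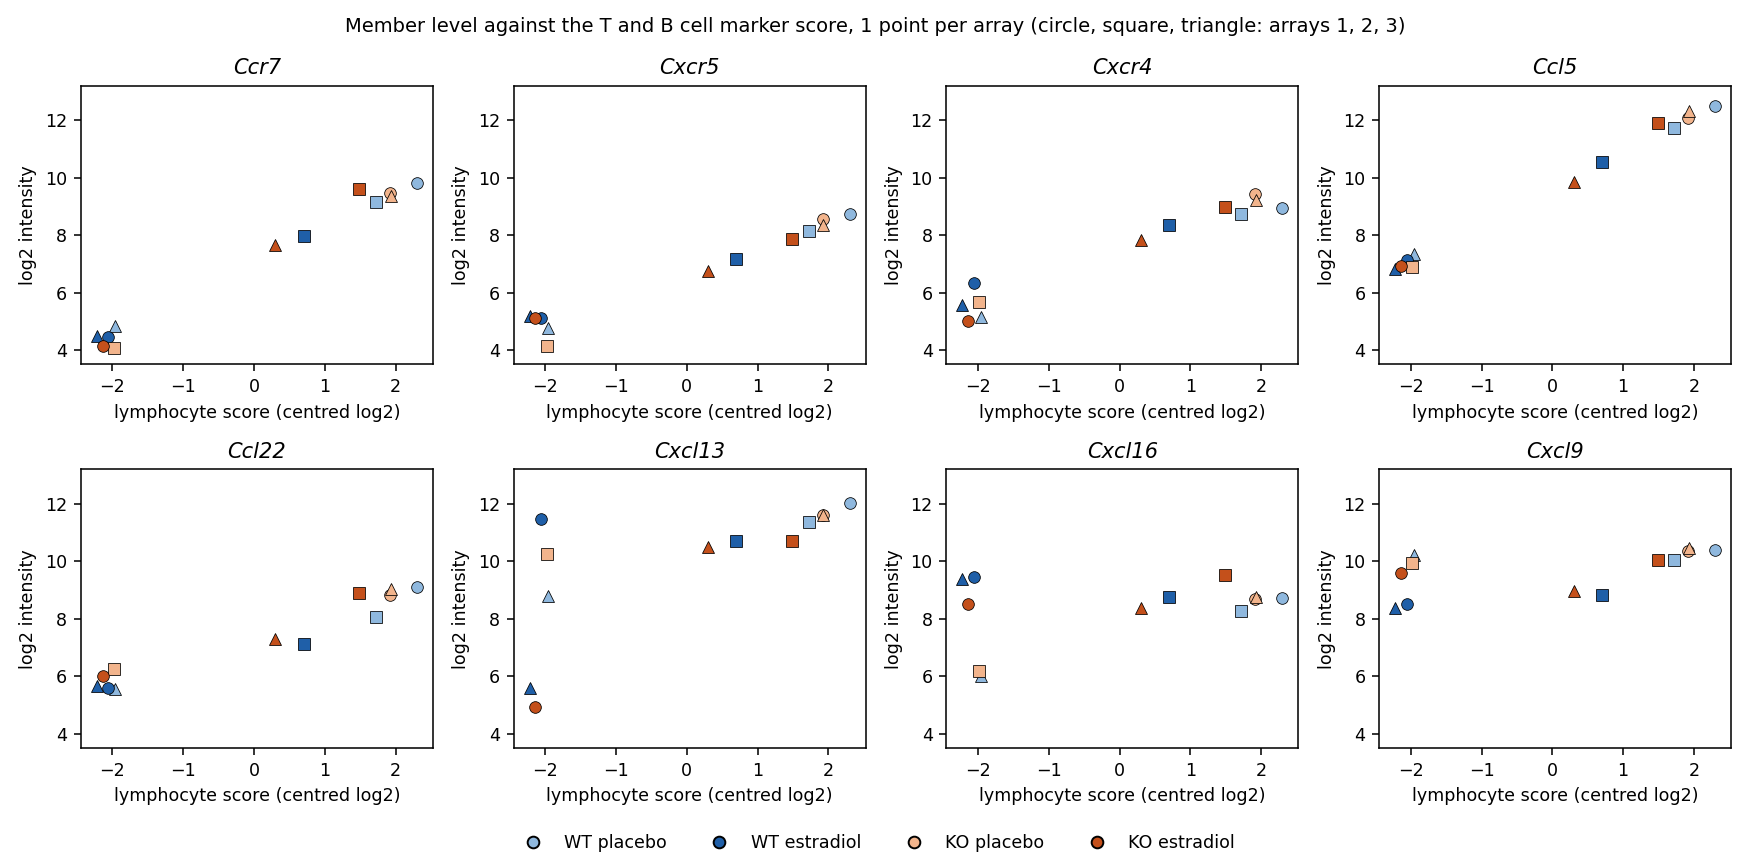
Log2 intensity of 8 members (y axis) against the lymphocyte score (x axis, mean of centred T and B cell markers), with 1 point per array and colours by group. Ccr7, Cxcr5, Cxcr4, Ccl5 and Ccl22 line up with the score, Cxcl13 runs from 4.93 to 11.46 among the 5 arrays near -2, and Cxcl9 lies between 8.37 and 10.45 throughout.

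Cxcl13, the follicle ligand of Cxcr5, had the widest span of any member, 4.93 to 12.04. It read 12.04, 11.37 and 8.8 on wildtype placebo arrays, 11.46, 10.7 and 5.6 on wildtype estradiol arrays, 11.63, 10.24 and 11.63 on knockout placebo arrays and 4.93, 10.7 and 10.49 on knockout estradiol arrays. The 2 arrays under 6 are estradiol arrays low in the score, 1 of each genotype, yet wildtype estradiol array 1, as low in the score, read 11.46. The differences were -1.48 ± 1.79 in wildtype and -2.46 ± 1.79 in knockout, and neither passed. With the lymphocyte covariate they were 0.09 ± 1.42 and -1.85 ± 1.33. Cxcl12, the stromal ligand of Cxcr4, spanned 1.0 and differed by 0.19 ± 0.26 in wildtype and -0.61 ± 0.26 between genotypes on estradiol (adjusted p 0.339). With the lymphocyte score as a covariate that genotype difference was -0.77 ± 0.15 (adjusted p 0.0204 in limma).

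Of the lymphotoxin and noncanonical NF-kB genes, which set up lymphoid stroma, 13 of 14 were measured. In wildtype 10 were lower and 3 higher under estradiol, with 0 called and a median of -0.31. Integrins and selectin ligands of lymphocyte homing gave the same split, 10 lower and 3 higher of 13, with 0 called and a median of -0.74. Both lists hold lymphocyte genes.

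Barrier and epithelial ligands comprised 7 measured genes, 5 higher and 2 lower in wildtype, with 0 called and a median of 0.11. Cxcl16, a membrane-bound ligand of Cxcr6, read 8.73, 8.28 and 6.01 on wildtype placebo arrays and 9.44, 8.77 and 9.37 on wildtype estradiol arrays. In knockout it read 8.7, 6.17 and 8.77 on placebo and 8.51, 9.51 and 8.36 on estradiol. The low values of 6.01 and 6.17 are the 2 placebo arrays poor in lymphocyte markers, and the 3 estradiol arrays as poor in them stood at 8.51 to 9.44. The wildtype difference was 1.52 ± 0.80 (adjusted p 0.461). The average over both genotypes passed with the lymphocyte covariate, at 1.76 ± 0.40 (adjusted p 0.0463), and without it was 1.22 ± 0.57 (adjusted p 0.322).

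Its receptor Cxcr6 ranged from 3.55 to 7.0 and was dim on 6 arrays. Cxcl14, an epithelial ligand, ranged from 5.39 to 9.38, both extremes on knockout estradiol arrays, and differed by 0.81 ± 0.96 in wildtype. Ccl28, which in mouse draws antibody-secreting cells into the lactating gland, spanned 0.35 over all arrays. Ccl20 spanned 0.34. The gut ligand Ccl25 spanned 0.9, and its receptor Ccr9 from 4.05 to 7.36 was dim on 5 arrays. The receptors Ccr6, Ccr9 and Cxcr6 were lower in wildtype under estradiol by 1.33 to 1.56 in size with SE of 0.81 to 0.96, and none passed. With the lymphocyte covariate the differences were -0.22 ± 0.13 for Ccr6, -0.49 ± 0.28 for Ccr9 and -0.36 ± 0.20 for Cxcr6.

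T helper and skin homing ligands were Ccl1, Ccl17 and Ccl22. Ccl17, a dendritic cell ligand of Ccr4, read 7.33, 7.13 and 6.83 on wildtype placebo arrays and 6.43, 6.66 and 6.33 on wildtype estradiol arrays. The groups were apart, and the difference of -0.62 ± 0.30 did not pass (adjusted p 0.407). Ccl22, the other Ccr4 ligand, ranged from 5.56 to 9.12 and differed by -1.44 ± 1.06, or by -0.12 ± 0.25 with the lymphocyte covariate. For Ccl17 that fit gave -0.30 ± 0.17. Ccr4 and Ccr8 were dim on all arrays.

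Cx3cl1, the membrane-tethered fractalkine of epithelium and endothelium, read 6.96, 8.3 and 7.39 on wildtype estradiol arrays and between 6.03 and 6.91 on the other 9. It was lower in knockout on estradiol by 1.21 in size (-1.21 ± 0.32, adjusted p 0.122), which did not pass, and passed with the lymphocyte covariate (-1.31, adjusted p 0.0383). With the luminal covariate the difference was 0.0 ± 0.55 (adjusted p 1), in a fit that called 0% of all genes in this comparison. The luminal score does not overlap between the groups compared, so luminal content and genotype cannot be told apart there. Without a covariate another probe set of the gene differed by 0.03 between genotypes on estradiol, the only 1 of 27 alternatives that turned direction. Its receptor Cx3cr1 ranged from 4.61 to 5.76. Xcl1 and Xcr1, the ligand and receptor that bring T cells to cross-presenting dendritic cells, were dim on all arrays.

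Knockout against wildtype on placebo moved 0 members past the threshold in limma, beside 0% of all genes. At an unadjusted p under 0.05 there were 2 members (4.08%, beside 2.03% of all genes), Ccr8 at 0.38 and Cxcl2 at 0.31, both dim on all arrays. The groups did not overlap for 6 members (12.2%, beside 6.71% of all genes and 4.9% higher), all 6 higher in knockout: Ccl28, Ccl8, Ccr8, Cxcl1, Cxcl2 and Xcl1. For Ccl8 the knockout arrays at 9.45, 10.66 and 9.52 stood just above the wildtype arrays at 9.12 to 9.43, a difference of 0.56 ± 0.51. The median member difference was 0.07.

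Knockout against wildtype on estradiol called Cxcl15 alone, 2.04% of the members, beside 1.12% of all genes, 0.033% called higher and 1.09% called lower. At an unadjusted p under 0.05 there were 8 members (16.3%, beside 13.5% of all genes). Of these Ccl2, Ccl7, Ccl8, Cx3cl1, Cxcl12, Cxcl15 and Cxcl5 were lower in knockout and Cxcl9 was higher, by 0.96 ± 0.25 (adjusted p 0.119). The groups did not overlap for 8 members, Ccl28 and Cxcl9 higher and 6 lower (16.3%, beside 22.3% of all genes, 10.5% higher and 11.8% lower). This comparison shares its wildtype estradiol arrays with the wildtype estradiol comparison, so the values for Cxcl15, Ccl8 and Cxcl9 in both comparisons are not independent.

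The interaction called 0 members in limma, beside 0.011% of all genes. At an unadjusted p under 0.05 there were 6 members (12.2%, beside 6.43% of all genes): Cxcl15, Cxcl9, Ccl2, Ccl8, Ccl9 and Cx3cl1. Cxcl9 had a positive value and the other 5 negative ones. The average estradiol effect called the same 4 members as wildtype alone, 8.16%, beside 1.58% of all genes (1.43% higher and 0.143% lower). The average genotype effect called 0, beside 0% of all genes, with 7 members at an unadjusted p under 0.05 beside 10.1% of all genes. Cxcl15 had the smallest p (-2.4 ± 0.34, adjusted p 0.0687).

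**Figure D4:**
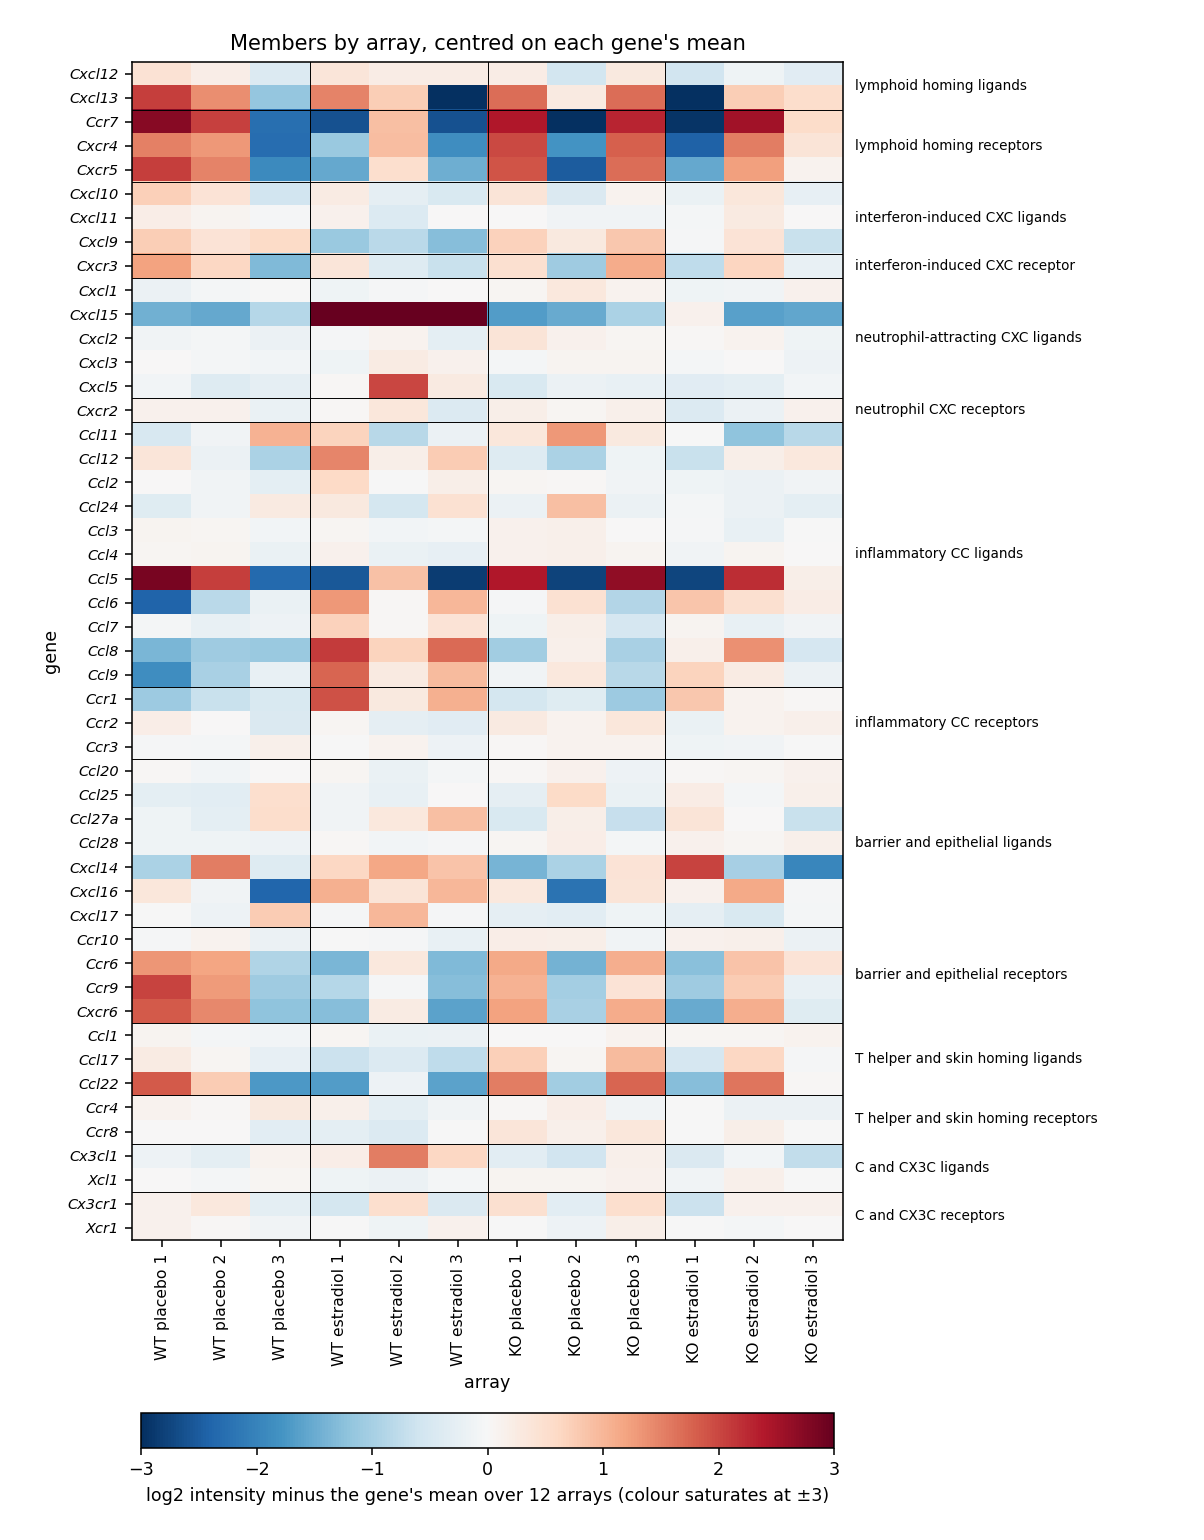
All 49 members (rows, grouped by role) on the 12 arrays (columns), coloured by log2 intensity minus the gene's own mean, with colour saturating at 3. Cxcl15 is high on the 3 wildtype estradiol arrays, whereas Ccr7, Ccl5 and Cxcr5 are low on the 5 arrays near -2 on the lymphocyte score, which lie in all 4 groups.

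Genes that act with chemokines were counted from lists. Of 12 measured genes for ligand processing and presentation, 9 were higher and 3 lower in wildtype under estradiol, with 1 called. That gene was Sdc1, the epithelial and plasma cell heparan sulfate proteoglycan syndecan, which binds chemokines, at 2.63 ± 0.29 (adjusted p 0.00229 in limma) with group means of 8.07 and 10.7. Of 29 measured genes of receptor signalling, 11 were higher and 18 lower, with 0 called and a median of -0.24. On estradiol the arrestin gene Arrb1, which shuts off and internalizes such receptors, was lower in knockout at -0.73 ± 0.13 (adjusted p 0.0274). Of 10 atypical receptors and family genes outside the symbol rule, such as Ackr1 to Ackr4, 7 were higher and 3 lower in wildtype, with 0 called.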

How the data were processed

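The deposited values are log2 intensities of 45101 probe sets on 12 single-colour Affymetrix arrays. Per the submitters' processing notes the authors used RMA and limma 2.9.16; the versions of RMA and of the chip definition are not given in the sources used here. No value is below 0, the highest is 14.3, and the number of arrays limits the precision.

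The platform annotation links 34945 probe sets to 1 gene, and the 932 linked to several genes, 9160 to none and 64 controls were not used. For each of the 18193 genes, the probe set brightest on average across the arrays was used. The 49 members have 77 probe sets, and 18 members have more than 1.

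Group means were fitted with lmFit and eBayes (limma 3.58.1, R 4.3.3), with 8 residual and 2.15 prior degrees of freedom. Tests were two-sided, with Benjamini-Hochberg adjustment over all genes and a threshold of 0.05, for 7 comparisons. The fit was tested on simulated data. Marker scores are means of log2 levels centred over the arrays. Slopes on a score come from a model that also holds the 4 group means.

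Named members are those called in any comparison, up to 5 per main comparison with the smallest unadjusted p and a difference of 1 or more, and the 12 with the widest span. Other members are named with their role groups. The alternatives were other probe sets or their mean, a filter on dim genes, other scalings, priors and thresholds, array weights, a replicate block, marker score covariates, the 6 arrays compared, and leaving out each array. Members, lists and most alternatives were chosen with earlier results of these data known. The macrophage covariate and the omission of wildtype placebo array 3 and knockout placebo array 2 together were chosen after seeing the data. Promoter windows and gene order come from RefSeq tables of GRCm38.p6. Figures were drawn with matplotlib 3.10.9.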

Additional observations from a re-analysis of the deposited data

How the results depend on the processing

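Counts of called members moved with several settings, and so did the share of all genes called, given in brackets for most settings. In wildtype under estradiol the 4 calls, beside 1.88% of all genes, became 19 with array weights (25.8% of all genes). They became 6 with the lymphocyte covariate (3.79%), which added Ccl9 and Cxcr4, and 2 with a replicate block (0.868%). There were 0 with the luminal covariate (0.0605%) and 0 with the macrophage covariate (0.0879%). Without wildtype placebo array 3 and knockout placebo array 2 there were 7 (11.8%). The 6 arrays compared gave 2, and leaving out 1 array gave 1 to 6. In knockout the 0 calls, beside 0.0989% of all genes, became 1 with the lymphocyte covariate (0.275%), and leaving out 1 array gave 0. Between genotypes on estradiol the 1 call, beside 1.12% of all genes, became 3 with the lymphocyte covariate (5.46%). It became 0 with the luminal covariate (0%) and 2 without those 2 placebo arrays (2.59%). Leaving out 1 array gave 0 to 1. The interaction's 0 calls, beside 0.011% of all genes, became 1 with array weights (0.462%) and 1 with the lymphocyte covariate (0.368%). Leaving out 1 array gave 0 to 1. The average estradiol effect's 4 calls, beside 1.58% of all genes, became 15 with array weights (26.6%) and 12 without those 2 placebo arrays (21.5%). With the lymphocyte covariate there were 6 (2.94%), which added Ccl11 and Cxcl16. There were 2 with the replicate block (0.737%) and 0 with the macrophage covariate (0.0989%). Leaving out 1 array gave 2 to 6. The count was 2 without wildtype placebo array 1 or 2 or wildtype estradiol array 3. It was also 2 without knockout placebo array 1 or 3, or knockout estradiol array 1 or 2. The average genotype effect's 0 calls, beside 0% of all genes, became 1 with array weights (1.09%) and 1 with the lymphocyte covariate (0.731%). The count was 1 at an adjusted p under 0.10. It was 0 to 1 on leaving out 1 array (1 without wildtype estradiol array 1 or knockout estradiol array 1). On placebo the genotype count was 0 throughout. The cause of these shifts was not tested, and the array weights stopped before their convergence tolerance.

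Over 18 named member comparisons and 439 alternative values, 366 kept direction and side of the threshold, 60 lost the call, 9 gained it and 4 turned direction. The 4 were Ccl9 in wildtype with the macrophage covariate (-0.11), Cx3cl1 between genotypes on estradiol on another probe set (0.03) and in the interaction on that probe set (0.0), and Cxcl5 between genotypes on estradiol with the luminal covariate (0.49). Cxcl15 kept its wildtype call when any 1 array was left out (4.61 to 5.2). Only comparisons called in the main fit could lose a call, and the 366 also hold uncalled ones that stayed uncalled. In wildtype the call was lost in 16 of 25 alternatives for Ccr1, 8 of 24 for Ccl8, 5 of 25 for Cxcl9 and 2 of 25 for Cxcl15. The average estradiol effect lost it in 13 of 24 for Ccr1, 10 of 23 for Ccl8, 3 of 24 for Cxcl9 and 1 of 24 for Cxcl15. Cxcl15 between genotypes on estradiol lost it in 2 of 25.

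Same-numbered arrays of different groups did not consistently deviate together. Their 18 correlations ran from -0.74 to 0.66 with 7 over 0.1, and 0 of 12 arrays correlated best with their own number. Arrays also differ in lymphocyte content within every group, so these correlations cannot show or exclude a shared litter or day. The labels do not tie the numbers to a litter or day. On that ground the replicate block above has no basis in the design.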
